A study of Homo sapiens with 6 samples.

Results

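MRC2 and 6 genes of the urokinase-plasminogen system (PLAU, PLAUR, PLAT, SERPINE2, SERPINB2 and LRP1) were described in A549-GFP and A549-TIPARP cells. The 7 genes were taken by symbol from the 53826 entries of each table, and 5 of them were among the 13181 genes analysed, that is, genes with more than 2 TPM (the length-scaled share of all transcripts) in at least 1 of the 6 libraries. PLAT and SERPINB2 were not. The members were chosen by name with the measured log2 differences between the lines known, and MRC2, 7.17-fold higher in A549-TIPARP cells, was the gene around which the set was drawn. The differences of the members between the lines are therefore given as a description, with their spread and without a test.

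The established cell line A549 derives from a human adenocarcinoma of the lung. The A549-TIPARP line stably overexpressed TIPARP, and the control line A549-GFP did so with GFP. The coding sequence was delivered in both by a pMXs retroviral vector, and whether a line was a clone or a pool is not given in the sources used here. The mRNA in total RNA was sequenced in 3 libraries per line, numbered by experiment in the sample titles, and nothing says whether the 3 came from separate cultures, so the spread between them may be technical. The comparison of the lines was made to find genes that differ when TIPARP, an enzyme that adds single ADP-ribose units to proteins, is overexpressed.

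The urokinase-plasminogen system breaks down fibrin and matrix next to cells. Urokinase (PLAU) is secreted as a proenzyme, binds its receptor on the cell surface (PLAUR, uPAR), and cuts plasminogen into the broad protease plasmin. Tissue plasminogen activator (PLAT) does the same mainly on fibrin, while serpins block the activators and LRP1, a large endocytic receptor, takes up the blocked complexes. MRC2 (uPARAP, Endo180), a receptor of the mannose receptor family, binds collagen and its fragments for uptake into lysosomes and associates with urokinase bound to its receptor.

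The lines and libraries were checked first. TIPARP was 3.68 to 11.4 TPM in A549-GFP and 90.5 to 131 TPM in A549-TIPARP libraries, a level that does not tell the transgene from the cells' own gene. Of the 6 epithelial markers all were analysed, and their summed level was 8345 to 21245 TPM in A549-GFP and 16525 to 19966 TPM in A549-TIPARP cells, nearly all of it KRT8 and KRT18. KRT19, a keratin of the same list at 2.54 to 5.36 and 10.9 to 19.2 TPM, was 4.0-fold higher in A549-TIPARP cells without overlap. The other markers overlapped, with log2 differences of 0.28 for KRT8, 0.34 for KRT18, 0.82 for CLDN4, 0.03 for CDH1 and -0.30 for EPCAM. Without A549-GFP replicate 2 these were -0.13, -0.13, 1.4, 0.38 and -0.38. Of the 6 lung markers, 5 were listed at the floor in all 6 libraries (NKX2-1, SFTPA1, SFTPB, SFTPC and SCGB1A1). All 6 endothelial markers were at the floor in every library, as were 6 of 8 fibroblast and mesenchymal stromal markers, whose sum was 1.09 to 1.44 TPM in A549-GFP and 1.64 to 2.56 TPM in A549-TIPARP cells. Of the 6 leukocyte markers 3 were at the floor throughout, PTPRC among them, and the sum, 31.9 to 79.0 TPM and 32.9 to 48.5 TPM, was mostly CD68. CD68, CD14 and LYZ had log2 differences of -0.43, 0.80 and 0.56, all with overlap. Without A549-GFP replicate 2 these were -0.02, 1.49 and 0.83. A549-GFP replicate 2 stood apart. It deviated from the mean of its line by 0.621 on the log2 scale (root mean square over the analysed genes), against 0.185 to 0.400 in the other 5 libraries. It had the highest value of the 6 libraries for 52.0% of the analysed genes. Its epithelial sum, 8345 TPM, was the lowest, as were KRT8, KRT18 and KRT19, while CDH1, at 142 TPM, was the highest of the 6. EPCAM and CLDN4 lay in between. The differences of the members are given with and without A549-GFP replicate 2.

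MRC2 was higher in A549-TIPARP cells in every library. MRC2 (Entrez Gene ID 9902; 30 exons in the canonical transcript; chromosome 17, 62627670 to 62693597, plus strand, GENCODE 44 on hg38) was measured at 2.65, 1.44 and 3.15 TPM in A549-GFP replicates 1, 2 and 3. In A549-TIPARP replicates 1, 2 and 3 it was 12, 15.5 and 23.8 TPM. The lowest A549-TIPARP library was thus well above the highest A549-GFP library, and A549-GFP replicate 2, which was high for most genes, was the lowest of the 6 for MRC2. The mean log2 TPM was 1.2 ± 0.59 (SD, n = 3) in A549-GFP and 4.04 ± 0.50 (SD, n = 3) in A549-TIPARP cells, a difference of 2.84 with a standard error of 0.45. Without A549-GFP replicate 2 the difference was 2.51, and with each library left out in turn it lay between 2.51 and 3.07. The other 6 ways of scaling or averaging gave 2.39 to 2.91, the lowest with a pseudocount of 1. In bulk RNA a larger share of cells with MRC2 and more MRC2 RNA per cell cannot be told apart. Fibroblasts carry MRC2. Of their 8 listed markers, COL1A2, COL3A1, DCN, PDGFRB, PDGFRA and THY1 were at the floor in all 6 libraries. COL1A1 was higher in A549-TIPARP cells, at 1.64 to 2.56 TPM against 1.44 TPM or less, and its part in the result was not tested.

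**Figure D1:**
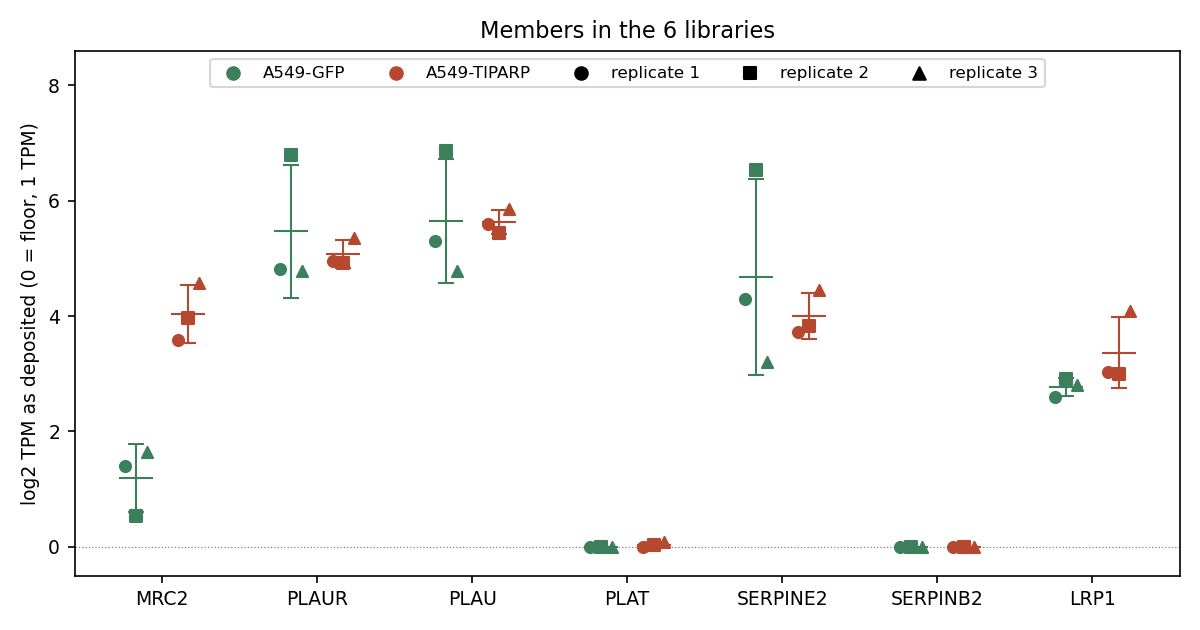
Deposited log2 TPM of the 7 members in each library, with the mean (wide line) and SD (bar, n = 3) of each line; 0 is the floor of the tables, 1 TPM. MRC2 stands apart between the lines, while PLAUR, PLAU and SERPINE2 are spread by A549-GFP replicate 2 (green squares), and PLAT and SERPINB2 lie at the floor.

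Of the 5 analysed members, MRC2 alone was past 2-fold higher, a limit passed by 1.53% of the 13181 analysed genes, and none was past 2-fold lower, where 0.432% of the analysed genes were. The nearest members outside the limit were LRP1, with a log2 difference of 0.59, and SERPINE2, with -0.68. The libraries of the lines did not overlap for MRC2 and LRP1, both higher in A549-TIPARP cells, as for 5.36% of all analysed genes. No member had all A549-TIPARP libraries below all A549-GFP libraries, as 3.54% of the analysed genes had. These counts belong to the contrast by which the set was drawn up, and nothing is read from them. The mean was higher in A549-TIPARP cells for 2 of the 5, MRC2 and LRP1, as for 40.1% of all analysed genes.

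The receptor and its ligand differed less between the lines than among the A549-GFP libraries. PLAUR (Entrez Gene ID 5329; 7 exons; chromosome 19, 43646095 to 43670547, minus strand) is the membrane-anchored receptor that holds urokinase at the cell surface. It was 28.3, 111 and 27.6 TPM in A549-GFP replicates 1, 2 and 3. In A549-TIPARP replicates 1, 2 and 3 it was 31.2, 30.3 and 40.8 TPM. A549-GFP replicate 2 was thus far above all others, and the A549-TIPARP libraries lay above the other 2 A549-GFP libraries by a small margin. The mean log2 TPM was 5.47 ± 1.15 (SD, n = 3) in A549-GFP and 5.08 ± 0.24 (SD, n = 3) in A549-TIPARP cells. The difference of -0.39, with a standard error of 0.68, became 0.28 without A549-GFP replicate 2.

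PLAU (Entrez Gene ID 5328; 11 exons; chromosome 10, 73909177 to 73917496, plus strand) encodes urokinase, the activator itself. Its level was 39.6, 116 and 27.5 TPM in A549-GFP replicates 1, 2 and 3. In A549-TIPARP replicates 1, 2 and 3 it was 48.3, 43.5 and 57.5 TPM. The pattern was that of PLAUR, with A549-GFP replicate 2 highest and every A549-TIPARP library above A549-GFP replicates 1 and 3. The mean log2 TPM was 5.65 ± 1.08 (SD, n = 3) in A549-GFP and 5.63 ± 0.20 (SD, n = 3) in A549-TIPARP cells, so that the difference was -0.02 with a standard error of 0.64. It was 0.58 without A549-GFP replicate 2. The antisense gene C10orf55 overlaps PLAU and reached at most 0.45 on the log2 TPM scale.

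The sequences before the start sites of PLAU and PLAUR are shown because ligand and receptor were raised in the same library. That is not particular to the pair, since A549-GFP replicate 2 had the highest value for 52.0% of all analysed genes. They come from RefSeq promoter windows on GRCh38.p14, and were kept where the start was that of the canonical GENCODE 44 transcript. The table held windows for 5 of the 7 members, at that start for PLAU, PLAUR, SERPINB2 and LRP1. The PLAU stretch, chr10:73910882-73911103 on the plus strand, runs from base -250 to base -29 before the start and stops where an exon of another transcript begins. The PLAUR stretch, chr19:43670337-43670366 on the minus strand, is a site of 30 bases from -197 to -168, cut around its AP-1 match. It lies, as does the whole PLAUR window, in an exon of another transcript. Capitals mark the motifs searched on both strands, which do not overlap here. They are the AP-1 site (TGAGTCA, or TGACTCA on the other strand), the AHR core (GCGTG, or CACGC on the other strand) and the GC box (GGGCGG, or CCGCCC on the other strand).
PLAU: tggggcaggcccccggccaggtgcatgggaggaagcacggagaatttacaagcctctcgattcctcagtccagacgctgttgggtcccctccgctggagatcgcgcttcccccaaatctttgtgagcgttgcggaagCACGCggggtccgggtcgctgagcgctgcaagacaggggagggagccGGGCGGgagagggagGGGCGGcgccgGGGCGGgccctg
PLAUR: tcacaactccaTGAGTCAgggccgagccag
In the 250 bases before its start PLAU held 3 GC boxes and 1 AHR core, with no AP-1 site. PLAUR held 1 AP-1 site, at -186 to -180, and 1 AHR core, with no GC box. LRP1, only 1.16-fold higher in A549-GFP replicate 2 than in the other controls, held 1 GC box and neither of the other motifs. Of 35116 windows of the same length, 4.2% held an AP-1 site, 32.2% an AHR core and 42.6% a GC box. A match is a run of letters and not a measured binding site.

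PLAT (Entrez Gene ID 5327; 14 exons; chromosome 8, 42174718 to 42207709, minus strand), the tissue plasminogen activator, was at or next to the floor in every library. It was listed at the floor of 1 TPM in all 3 A549-GFP libraries and in A549-TIPARP replicate 1. In A549-TIPARP replicates 2 and 3 it was 1.02 and 1.06 TPM. Of the activator transcripts PLAU was thus by far the more abundant, at 27.5 TPM or more in each library, and no difference in PLAT was detectable above the floor.

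The inhibitors among the members differed from each other in level and in spread. SERPINE2 (Entrez Gene ID 5270; 9 exons; chromosome 2, 223975045 to 224039318, minus strand) encodes protease nexin-1, which blocks urokinase, tissue plasminogen activator and thrombin. In A549-GFP replicates 1, 2 and 3 it was 19.6, 92.5 and 9.19 TPM. In A549-TIPARP replicates 1, 2 and 3 it was 13.2, 14.1 and 21.8 TPM. A549-GFP replicate 2 was the highest and A549-GFP replicate 3 the lowest of the 6, so the A549-TIPARP libraries lay inside the range of the control line. The mean log2 TPM was 4.68 ± 1.70 (SD, n = 3) against 4.0 ± 0.39 (SD, n = 3), a difference of -0.68 with a standard error of 1.01. Leaving out A549-GFP replicate 2 gave a difference of 0.25, and leaving out replicate 3 of that line gave -1.41, so its direction rested on A549-GFP replicate 2. SERPINB2 (Entrez Gene ID 5055; 8 exons; chromosome 18, 63871692 to 63903888, plus strand), the type 2 plasminogen activator inhibitor, was listed at the floor in all 6 libraries.

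LRP1 (Entrez Gene ID 4035; 89 exons; chromosome 12, 57128483 to 57213361, plus strand), the receptor that clears protease and inhibitor complexes, was the steadiest of the 5 analysed members in the control line. It was 6.03, 7.54 and 7.03 TPM in A549-GFP replicates 1, 2 and 3. In A549-TIPARP replicates 1, 2 and 3 it was 8.18, 7.93 and 16.9 TPM. The lines did not overlap, but A549-TIPARP replicates 1 and 2 were close to the controls and A549-TIPARP replicate 3 was far above both. The mean log2 TPM was 2.77 ± 0.16 (SD, n = 3) in A549-GFP and 3.36 ± 0.62 (SD, n = 3) in A549-TIPARP cells. The difference of 0.59, with a standard error of 0.37, became 0.24 without A549-TIPARP replicate 3 and was 0.66 without A549-GFP replicate 2. LRP1 overlaps STAT6 on the opposite strand, which was 5.46 to 6.78 on the log2 TPM scale, and whether the authors counted reads by strand is not given in the sources used here.

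**Figure D2:**
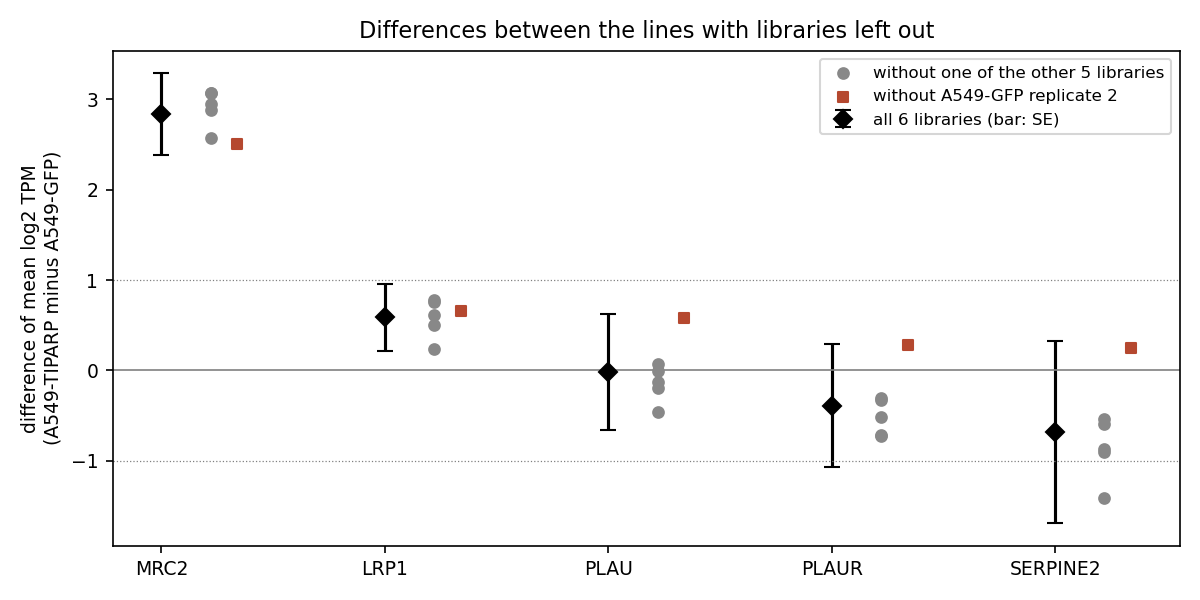
Difference of the mean log2 TPM between the lines for the 5 analysed members, with all 6 libraries (diamond, bar: standard error) and with each library left out; dotted lines mark 2-fold. MRC2 stays between 2.51 and 3.07, while PLAU, PLAUR and SERPINE2 go from -0.02, -0.39 and -0.68 to 0.58, 0.28 and 0.25 without A549-GFP replicate 2 (red squares).

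A549-GFP replicate 2 divided the members. Against the mean log2 TPM of A549-GFP replicates 1 and 3, it was 6.89-fold higher in SERPINE2, 3.98-fold higher in PLAUR and 3.53-fold higher in PLAU. For LRP1 it was 1.16-fold higher, and for MRC2 it was 2.00-fold lower. Over all analysed genes, 0.470% had a larger excess in that library than SERPINE2, 2.22% a larger one than PLAUR and 3.14% a larger one than PLAU, while 4.97% were lower there, relative to the other controls, than MRC2. SERPINE2, PLAUR and PLAU were thus among the genes most raised in that library and MRC2 among those most lowered. The cause was not tested.

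The order of the members by TPM, a level per transcript length, changed through MRC2 alone. In A549-GFP libraries the mean level was 61.2 TPM for PLAU, 55.7 TPM for PLAUR and 40.4 TPM for SERPINE2, and these neighbours did not differ beyond their spread. These means were carried by A549-GFP replicate 2, without which the mean log2 TPM went from 5.65 to 5.04 for PLAU, from 5.47 to 4.80 for PLAUR and from 4.68 to 3.75 for SERPINE2. LRP1 was next at 6.87 TPM, below every value of SERPINE2, and MRC2 was last of the 5 at 2.41 TPM, below every value of LRP1. In the A549-TIPARP line PLAU, at 49.8 TPM, lay above PLAUR, at 34.1 TPM, without overlap, and PLAUR lay above all values of the rest. MRC2, at 17.1 TPM, was beside SERPINE2, at 16.4 TPM, within their spread. LRP1 was last at 11 TPM, and its highest library overlapped with both, although MRC2 exceeded LRP1 within each library.

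A ratio of 2 genes within a library does not depend on how that library was scaled. The ratio of MRC2 to LRP1 was 0.439, 0.191 and 0.448 in A549-GFP replicates 1, 2 and 3. It was 1.46, 1.96 and 1.41 in A549-TIPARP replicates 1, 2 and 3. MRC2 was thus the lower of these endocytic receptors in all 3 control libraries and the higher in all 3 A549-TIPARP libraries. Against PLAUR, with which its protein associates, MRC2 stood at 0.0935, 0.0130 and 0.114 in A549-GFP replicates 1, 2 and 3. The corresponding ratios were 0.383, 0.511 and 0.583 in A549-TIPARP cells, where PLAUR remained the more abundant transcript. The ratio of PLAUR to LRP1 was 4.69, 14.7 and 3.93 in the A549-GFP libraries and 3.82, 3.83 and 2.42 in the A549-TIPARP libraries, without overlap but with 3.93 next to 3.83. MRC2 and SERPINE2 were nearly level in A549-TIPARP cells, at ratios of 0.905, 1.1 and 1.09.

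The ratio of ligand to receptor varied less than their levels, a contrast that rested on A549-GFP replicate 2. PLAU and PLAUR each ranged over more than 4-fold across the 6 libraries (4.23-fold and 4.03-fold), and the ratio of PLAU to PLAUR over 1.55-fold. Without A549-GFP replicate 2, PLAU was 27.5 to 57.5 TPM and PLAUR 27.6 to 40.8 TPM, while the ratio kept its whole range. That ratio was 1.40, 1.05 and 0.996 in A549-GFP replicates 1, 2 and 3, and 1.55, 1.43 and 1.41 in A549-TIPARP replicates 1, 2 and 3. The A549-TIPARP libraries were the higher, but only just, with 1.41 in the lowest of them and 1.40 in the highest control. The ratio of PLAU to SERPINE2 ranged over 2.91-fold, from 1.26 to 3.66. Over the 6 libraries, which share the high values of A549-GFP replicate 2, the log2 TPM of PLAU had r = 0.94 with PLAUR and r = 0.94 with SERPINE2, a description only, and 7.64% and 6.9% of the other genes compared had a higher r with PLAU.

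**Figure D3:**
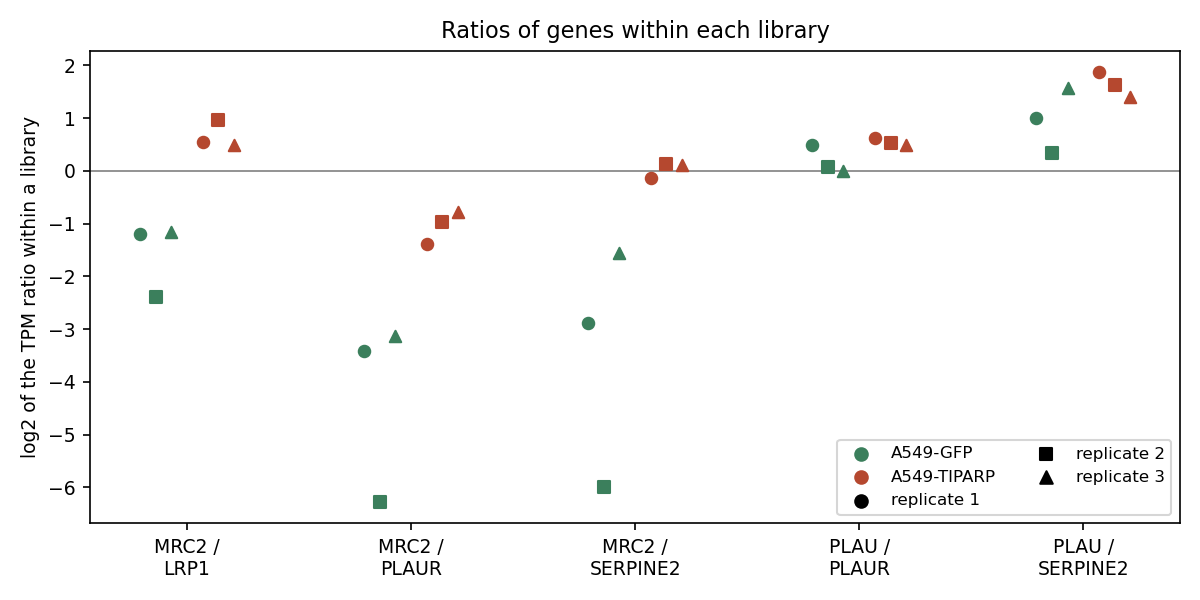
Log2 of the TPM ratio of 2 genes within each library, by line (colour) and replicate (symbol); 0 means equal levels. The ratio of MRC2 to LRP1 is below 0 in the 3 A549-GFP libraries and above 0 in the 3 A549-TIPARP libraries, while the ratio of PLAU to PLAUR stays between -0.01 and 0.63 in all 6.

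Genes with a pattern like that of MRC2 over the 6 libraries were sought among 12166 others above the floor in every library. The highest correlations of log2 TPM were with GPR161, an orphan receptor of the primary cilium (r = 0.993), COL6A1, a chain of type VI collagen (r = 0.991), KLC3, a kinesin light chain (r = 0.990), CFAP36 (r = 0.990) and FAM171A1 (r = 0.988). Their log2 differences between the lines were 0.72, 1.73, 0.97, 0.31 and 1.83. The most negative were with SC5D, an enzyme of cholesterol synthesis (r = -0.995), CXorf40A (r = -0.982) and ZNF674-AS1 (r = -0.965), with differences of -0.81, -0.36 and -0.75. Each r rests on 6 points that share the split between the lines and is a description only. None of the other members was among these genes.

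The other genes of the pathway were taken from 8 lists by function, 146 genes of which 76 were analysed. By limma with Benjamini-Hochberg adjustment over all 13181 genes, 0 of the 76 had an adjusted p under 0.05, where 0.0152% of all genes had one. The lowest adjusted p was 0.856. At an unadjusted p under 0.05 there were 6 higher and 1 lower, among 2.97% and 0.880% of all analysed genes. A replicate block on the experiment number gave 0 adjusted and 6 unadjusted. Past 2-fold were 2 of the 76 higher (2.63%, against 1.53% of all analysed genes) and 0 lower. All 3 A549-TIPARP libraries were above all controls for 11 of the 76 (14.5%, against 5.36% of all analysed genes) and below them for 3 (3.54% of all). The mean was higher for 45 of the 76 (40.1% of all analysed genes), and A549-GFP replicate 2 was the highest library for 42 (52.0% of all). The median log2 difference of the 76 was 0.05, against -0.07 over all analysed genes, and without A549-GFP replicate 2 it was 0.25 against 0.05.

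In the plasminogen cascade list, 7 of 15 genes were analysed and SERPINF2 alone was past 2-fold. SERPINF2, alpha-2-antiplasmin, the main inhibitor of plasmin itself, was 2.17, 2.10 and 2.09 TPM in A549-GFP and 5.07, 3.32 and 4.57 TPM in A549-TIPARP replicates 1, 2 and 3. All 3 A549-TIPARP libraries were above the controls, which lay close together. The log2 difference was 1.0 with a standard error of 0.18 (limma adjusted p = 0.856), and with each library left out it lay between 0.88 and 1.18. At 2.01-fold it was next to the limit, and it was not past it after GC correction or with a pseudocount of 0.1 or 1, the latter giving 0.75 on the log2(TPM + 1) scale. Plasminogen (PLG) reached at most 2.43 TPM, in A549-GFP replicate 2. Factor XII (F12) differed by 0.01 on the log2 scale, and vitronectin (VTN), a matrix ligand of PLAUR, by -0.42 with a standard error of 1.05, and by 0.47 without A549-GFP replicate 2.

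Of 21 listed receptors and partners of plasminogen and PLAUR 15 were analysed, with a median log2 difference of 0.12 (0.15 without A549-GFP replicate 2) and none past 2-fold. The most abundant was KRT8, a keratin that also serves as a plasminogen receptor, at means of 7309 and 8333 TPM with a log2 difference of 0.28, or -0.13 without A549-GFP replicate 2. ANXA2 and S100A10, which together form a docking site for plasminogen and PLAT, had mean log2 differences of 0.52 and 0.34, and of 0.15 and 0.02 without A549-GFP replicate 2. CAV1, caveolin-1, was above the controls in all 3 A549-TIPARP libraries, with a log2 difference of 0.61 and a standard error of 0.18 (limma adjusted p = 0.966), and 0.60 without A549-GFP replicate 2. Among the 5 integrin chains analysed in that list the log2 differences ran from -0.06 for ITGA3 to 0.24 for ITGAV, and EGFR, a receptor that signals with PLAUR, was at -0.41. Without A549-GFP replicate 2 these were 0.24, 0.50 and -0.16.

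The relatives of the members were described by family. In the mannose receptor family, MRC1 and LY75 were at the floor in all 6 libraries. PLA2R1, the receptor of secreted phospholipase A2, was 1.67, 1.96 and 1.43 TPM in A549-GFP and 2.62, 2.45 and 3.11 TPM in A549-TIPARP replicates 1, 2 and 3, with no overlap of the lines and a log2 difference of 0.70 (standard error 0.17, limma adjusted p = 0.994), or 0.81 without A549-GFP replicate 2. CD302 differed by 0.36 and overlapped, and by 0.80 without that library. Among proteins with the domain of PLAUR, 6 of 24 were analysed, with a median of 0.10 (0.29 without A549-GFP replicate 2), and its most abundant genes LY6E and CD59, the latter an inhibitor of complement, differed by 0.23 and -0.01 (0.29 and 0.33 without it). In the LDL receptor family 16 of 18 were analysed, with a median of -0.06, and the most abundant, LRP10 and LRP11, differed by 0.01 and -0.09 (0.43 and -0.06 without A549-GFP replicate 2). LRPAP1, the chaperone of LRP1, differed by -0.23 with all A549-TIPARP libraries below the controls, and by -0.06 without that library. SORT1, a sorting receptor, differed by 0.97 with a standard error of 0.27 and no overlap (limma adjusted p = 0.856), and by 1.14 without it.

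In the list for collagen uptake and its breakdown in lysosomes, 14 of 19 genes were analysed, with a median log2 difference of 0.03, and of 0.23 without A549-GFP replicate 2. Cathepsins are the lysosomal proteases that cut collagen taken up by MRC2. CTSB, CTSD and CTSK differed by -0.09, -0.34 and -0.19, all with overlap, and by 0.21, 0.16 and 0.44 without A549-GFP replicate 2. CTSH and CTSS differed by 0.60 and 0.52, also with overlap, and by 0.80 and 1.14 without that library. CTSL was 229, 500 and 229 TPM in A549-GFP and 156, 171 and 221 TPM in A549-TIPARP replicates 1, 2 and 3. All 3 A549-TIPARP libraries were lower, with a log2 difference of -0.72 and a standard error of 0.40 (limma adjusted p = 0.994), and -0.34 without A549-GFP replicate 2. MFGE8, a secreted protein that bridges collagen and cells, differed by 0.98 with a standard error of 0.39 (limma adjusted p = 0.966), and by 1.3 without A549-GFP replicate 2.

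The last lists held other serpins, and serine proteases with Kunitz inhibitors. SERPINA3, alpha-1-antichymotrypsin, was 1.87, 16.9 and 2.71 TPM in A549-GFP and 14.1, 7.56 and 33.3 TPM in A549-TIPARP replicates 1, 2 and 3. It was past 2-fold, with a log2 difference of 1.79 and a standard error of 1.16 (limma adjusted p = 0.994), but overlapped through A549-GFP replicate 2, without which the difference was 2.76. The median of the 9 analysed serpins was 0.01 (0.16 without that library), and the most abundant, SERPINB1 and the collagen chaperone SERPINH1, differed by -0.05 and 0.40 (0.09 and 0.71 without it). Of 7 analysed proteases and Kunitz inhibitors, HTRA1 and PRSS23 were above the controls in all 3 A549-TIPARP libraries, with log2 differences of 0.93 and 0.75 (limma adjusted p = 0.856 and 0.859), and of 1.07 and 0.68 without A549-GFP replicate 2. The inhibitors SPINT2 and TFPI2, the most abundant of that list, differed by -0.03 and -0.18, and by 0.37 and -0.01 without it. They were low for the list in that setting, since its median went from 0.01 to 0.68 without A549-GFP replicate 2.

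**Figure D4:**
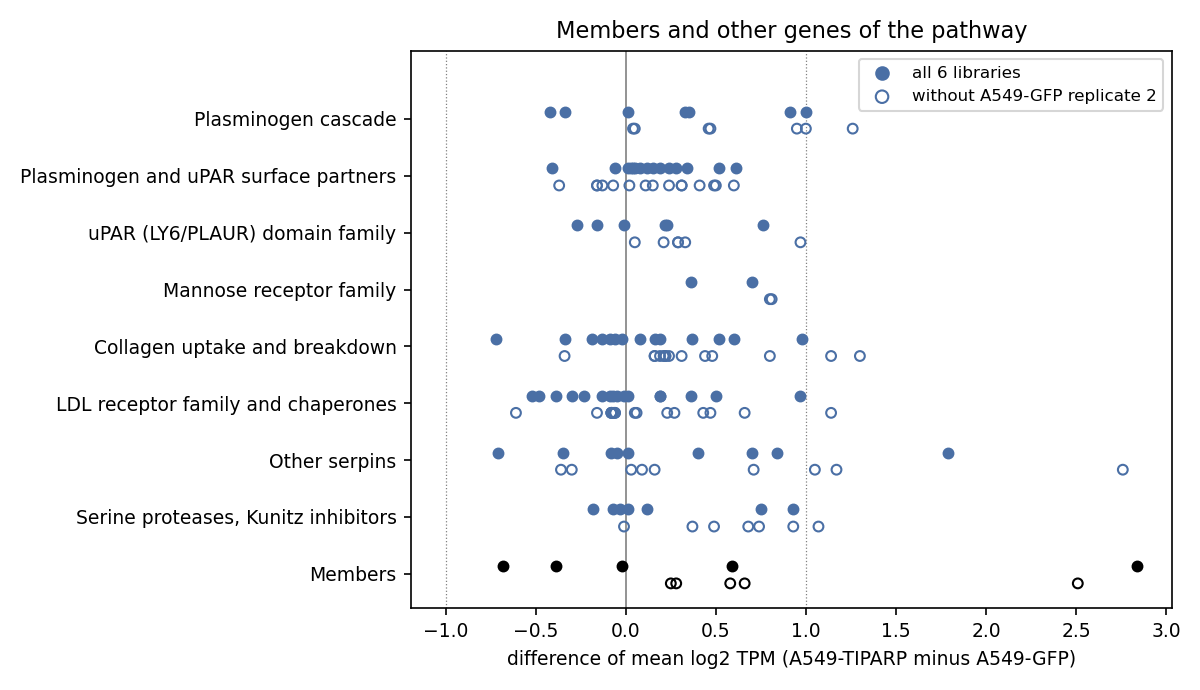
Difference of the mean log2 TPM between the lines for each analysed gene of the 8 lists and for the 5 analysed members, with all 6 libraries (filled) and without A549-GFP replicate 2 (open); dotted lines mark 2-fold. With all libraries MRC2, at 2.84, lies to the right of every other gene shown, and without A549-GFP replicate 2 SERPINA3, at 2.76, lies to the right of MRC2, at 2.51.

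Without A549-GFP replicate 2, 8 of the 76 genes were past 2-fold higher (HABP2, CTSS, MFGE8, SORT1, SERPINA1, SERPINA3, SERPINA6 and HTRA1) and 0 lower. SERPINF2 lay just under the limit in this setting. Over all analysed genes the share past 2-fold higher went from 1.53% to 2.91% in the same step. The count of pathway genes was also 8 without A549-TIPARP replicate 2, among 2.25% of all analysed genes, and 1 without A549-GFP replicate 3 or without A549-TIPARP replicate 1, among 2.01% and 1.73%. When A549-GFP replicate 2 was left out, the mean of all 5 analysed members was higher in the A549-TIPARP line. The differences were 2.51 for MRC2, 0.66 for LRP1, 0.58 for PLAU, 0.28 for PLAUR and 0.25 for SERPINE2. The median over all analysed genes was 0.05, so most analysed genes were higher too. PLAU, PLAUR and SERPINE2 were highest in the library left out, which raises their differences, and nothing is read from the count.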

How the data were processed

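RNA from 3 A549-GFP and 3 A549-TIPARP libraries (TruSeq Stranded mRNA kit, per the labels) was sequenced as paired ends. With Strand NGS at its defaults, the authors mapped them to human transcripts (hg38), and each library was deposited as a list of 53826 log2 TPM values. These go no lower than 0, the floor, since TPM below 1 had been set to 1. Software version, annotation and the handling of multiply mapped reads are not given in the sources used here. No counts were used, so depth and counting error are unknown.

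Groups and replicate numbers came from the sample titles. The members and gene lists were chosen with earlier results of these data known. Genes with TPM above 2 in at least 1 library were analysed. Fold changes are differences of mean deposited log2 TPM, and the standard error is that of 2 means with unequal spread. Pathway genes were tested with limma 3.58.1 in R 4.3.3, with a variance trend, on log2(TPM + 1) of all 13181 genes. Values at 0 entered this fit as 1 TPM, and as 0 TPM where a pseudocount replaced the floor. The script was tested on simulated data. Named genes are the members, TIPARP, list genes past 2-fold, the 2 most abundant genes of each list, and the genes most and least correlated with MRC2. Others were named after their values were seen: CAV1, S100A10, SORT1, MFGE8, HTRA1, PRSS23, PLG, EGFR, the integrins, CTSB, CTSH, CTSK, CTSS, ENO1, COL1A1, KRT19, PLA2R1, LRPAP1 and those past 2-fold only without a library. Single values of the epithelial and leukocyte markers were also given after they were seen. The values of 1 listed gene, which is in the counts, are not reported here. Positions are from GENCODE 44, and GC content (lowess, span 0.3) was known for 98.3% of analysed genes.

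Experiment numbers were not taken as pairs. The deviations of same-numbered libraries from the means of their lines correlated with r = 0.415, -0.486 and -0.358 in experiments 1, 2 and 3.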

Additional observations from a re-analysis of the deposited data

How the results depend on the processing

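Under the 6 alternatives of scale, mean, rescaling, small RNA entries and GC content, the differences of the 5 analysed members and of TIPARP moved by less than 1 SD pooled over both lines. For PLAU, PLAUR and SERPINE2 A549-GFP replicate 2 widened that SD, and with arithmetic means they went to -0.30, -0.71 and -1.3, shifts above the SDs of the A549-TIPARP line (0.20, 0.24 and 0.39). Leaving out 1 of 3 libraries cannot move a mean by more than that, so such settings are no test of stability. MRC2 was past 2-fold higher in these and with each library left out, and the count of members past 2-fold higher stayed at 1. The count of members past 2-fold lower was 1 with arithmetic means of TPM (1.08% of all analysed genes), and 0 to 1 with each library left out, the member being SERPINE2 in both cases and the library A549-GFP replicate 3 (1.52% of all). The direction of PLAU, PLAUR and SERPINE2 changed without A549-GFP replicate 2. That of PLAU, close to 0, also changed after median-ratio rescaling (0.04), after GC correction (0.01) and without A549-TIPARP replicate 2 (0.07). Pathway genes past 2-fold higher were 4 in place of 2 with a pseudocount of 0.1 (SERPINA3 among them, SERPINF2 not), where 4.75% of all analysed genes were, and 4 after median-ratio rescaling, where 1.85% were, and 1 to 8 with each library left out. Those past 2-fold lower were 1 with a pseudocount of 0.1 (2.02% of all) and 0 to 1 with each library left out.

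No alternative gave a pathway gene an adjusted p under 0.05 by limma, with 4 to 20 genes at an unadjusted p under 0.05. The 4 came without A549-TIPARP replicate 1 and the 20 without A549-GFP replicate 2, where 253 and 1379 of all 13181 genes were under it. Over all analysed genes 2 were called, and 1 without a filter, 1 with the replicate block and 1 with the replicate block and GC correction, and 1 to 3 with each library left out. Without a filter, entries at the floor in all 6 libraries could not be fitted. The cause of these changes was not tested. A TPM table holds no depth, so small differences near the floor, as for PLAT, cannot be resolved.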

Other observations

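Other listed genes shared the high value of A549-GFP replicate 2 with PLAU, PLAUR and SERPINE2. VTN was 37.0, 216 and 31.7 TPM in A549-GFP and 50.2, 23.7 and 89.1 TPM in A549-TIPARP replicates 1, 2 and 3. TFPI, the inhibitor of the tissue factor pathway, singled out after its values were seen, was 24.8, 132 and 33.1 TPM in A549-GFP and 34.5, 39.1 and 81.3 TPM in A549-TIPARP replicates 1, 2 and 3. That library had the highest value of the 6 for 42 of the 76 analysed pathway genes and the lowest for 9, against 52.0% and 13.7% of all analysed genes. The abundant plasminogen receptor genes were on the other side, with ENO1 at 1332 TPM in that library and 2014 and 2166 TPM in A549-GFP replicates 1 and 3.

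SERPINB8, an intracellular serpin singled out after its values were seen, was 5.18, 9.95 and 3.50 TPM in A549-GFP and 3.51, 3.54 and 3.30 TPM in A549-TIPARP replicates 1, 2 and 3. Its log2 difference was -0.71 with all libraries and -0.30 without A549-GFP replicate 2.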
